A study of Homo sapiens with 12 samples.

Results

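The sites described here are 376 positions in human introns where all 4 TDP43 libraries listed a TDP43 crosslink to RNA within 5 nt. Neither FOX2 nor hnRNP M was listed within 10 nt of them. These sites came from 60580 intron windows of 1 library, TDP43 WT replicate 1. The 12 libraries of the series listed 1162690 positions in all. A window is the highest listed position of a stretch, with at least 11 nt to the next kept position on the same strand. A window became a site where each of the other 3 TDP43 libraries listed a position within 5 nt on the same strand and no FOX2 or hnRNP M library listed one within 10 nt. The stretch from 25000001 to 26000000 of chromosome 15 was left out by the rule. Listing in the 4 TDP43 libraries, its lack in the FOX2 and hnRNP M libraries and the height order in WT replicate 1 are thus the values the sites were chosen by, and they are given as a description, without a test.

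The cells were H9, an established human embryonic stem cell line, as P-KO cells and as wild-type (WT) cells. The labels do not expand P-KO. The source label of the P-KO cells also carries the letters SPA, and how many clones were used was not stated. Both kinds of cell were crosslinked with ultraviolet light at 400 mJ per square centimetre and carried no other treatment in the labels. In iCLIP, an antibody pulls down the protein with its crosslinked RNA, and the place where reverse transcription stopped gives the contact to the nucleotide. There were 2 libraries each for TDP43 in P-KO and WT cells, FOX2 (RBFOX2) in P-KO and WT cells, and hnRNP M in P-KO and WT cells. In the TDP43 WT libraries 1 index barcode was used for both, and the P-KO libraries carried others, so index and genotype cannot be told apart.

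TDP43 is a nuclear RNA-binding protein that prefers stretches rich in UG repeats. Much of its binding lies in introns, often far from exons, and it is known for keeping cryptic exons out of mature transcripts and for its loss from the nucleus of neurons in amyotrophic lateral sclerosis. FOX2 recognises a short GCAUG element and regulates splicing from introns next to alternative exons, and hnRNP M is another splicing regulator with a leaning towards GU-rich RNA. A genome of the build used by the authors (hg19) was not used here, so no bases around the sites are shown and the antibody label could not be set against the UG preference. The files give Ensembl transcripts and no gene names, and the sites are named by transcript and intron number.

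Few TDP43 windows were repeated. Of the 60580 windows of WT replicate 1, 2821 (4.657%) were also listed in P-KO replicate 1, 3838 (6.335%) in P-KO replicate 2 and 3896 (6.431%) in WT replicate 2. None of the other 3 TDP43 libraries listed 53162 windows (87.76%), and 644 (1.063%) were listed in all of them. The 376 sites were 58.39% of those 644. Of the other 3 libraries, P-KO replicate 1 shared the fewest windows with WT replicate 1, and without it the rule gave 1153 sites. The other 268 had a position of another protein within 10 nt, which was FOX2 alone at 226, hnRNP M alone at 22 and both at 20. Started from FOX2 WT replicate 1, the same rule gave 1680 FOX2-only sites.

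Repetition went with height. Among windows with 2 counts in WT replicate 1, the lowest count the files list, 0.05609% of 37440 were repeated in all 4 TDP43 libraries. The share was 0.7875% of 18539 windows with 3 to 4 counts, 5.998% of 3768 with 5 to 9 counts, 22.78% of 676 with 10 to 19 counts and 61.78% of 157 with at least 20 counts. Among repeated windows, in contrast, the part free of FOX2 and hnRNP M was smaller at higher counts: 80.95%, 69.18%, 64.16%, 51.3% and 35.05% in the same 5 classes. The sites numbered 17, 101, 145, 79 and 34 in these classes, so that the middle heights held most of them. The 17 with 2 counts sat at the lowest count that a listing allows.

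The exclusion limit of 10 nt passed through a sparse range of distances. There were 5 repeated windows whose nearest FOX2 or hnRNP M position lay at 11 nt, just inside the set, and 7 at 10 nt, just outside it, whereas 113 had such a position at 0 nt, the same nucleotide. Just inside were position 7851744 of chromosome 11 (minus strand, intron 1 of ENST00000527565.1), with 3 and 2 counts in P-KO and 5 and 2 in WT, and position 48129226 of chromosome 3 (minus strand, intron 16 of ENST00000383737.4), with 11 and 3 counts in P-KO and 3 and 6 in WT. Their FOX2 neighbours were listed in FOX2 WT replicate 1 alone, with 2 and 3 counts. The third was position 69365590 of chromosome 14 (minus strand, intron 13 of ENST00000193403.6), with 3 and 5 TDP43 counts in P-KO and 11 and 9 in WT, beside 3 counts in hnRNP M WT replicate 2. Just outside were position 89370738 of chromosome 16, with 6 and 17 TDP43 counts in P-KO and 31 and 15 in WT, position 36725828 of chromosome 22, with 5 and 24 in P-KO and 6 and 22 in WT, and position 53264981 of chromosome 5, with 2 and 2 in P-KO and 3 and 3 in WT. The FOX2 positions that kept these out had 4, 5 and 2 counts, each in a single library. At these 6 windows, listings of 2 to 5 counts in 1 library stood at the limit.

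Window counts per library, the sum over all windows, were 172613 and 292694 in TDP43 P-KO and 207788 and 282997 in TDP43 WT. They spanned 218733 to 648651 in the FOX2 libraries and 58191 to 123482 in the hnRNP M libraries, so the lack of hnRNP M at a site rests on fewer counts than the lack of FOX2. A position under the authors' limits is not listed at all, and an unlisted position is therefore not a measured 0.

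The sites were low. In P-KO replicate 1 they ranged from 2 to 47 counts with a median of 4, and in P-KO replicate 2 from 2 to 39 with a median of 6. In WT replicate 1, the library that chose the positions, they ranged from 2 to 53 counts with a median of 7, and in WT replicate 2 from 2 to 50 with a median of 6. At 86 sites P-KO replicate 1 held just 2 counts, against 31 in P-KO replicate 2, 17 in WT replicate 1 and 28 in WT replicate 2. When each library was scaled to a total of 1000000 window counts (CPM), the medians were 23.17 and 20.5 CPM in P-KO and 33.69 and 21.2 CPM in WT, so 3 libraries lay close together and WT replicate 1 lay above them.

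**Figure D1:**
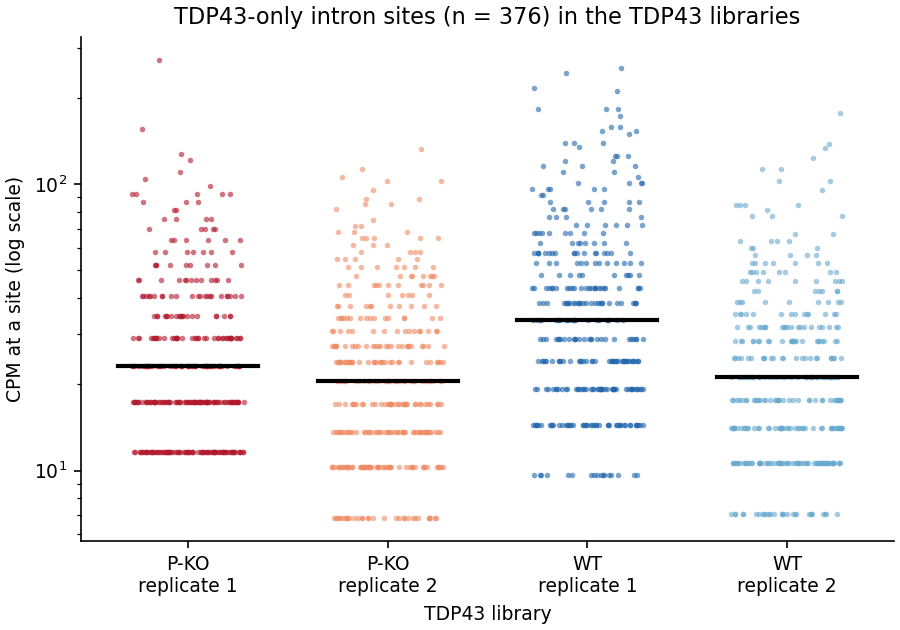
TDP43-only sites by library, P-KO left of WT, as CPM on a log axis; each point is 1 of the 376 sites and the bar is the median. The medians are 23.17 and 20.5 CPM in P-KO and 33.69 and 21.2 CPM in WT, and the floor of each column is the CPM of 2 counts, the lowest listed.

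The highest site lay at position 44269111 of chromosome 21 (hg19, minus strand), in intron 1 of ENST00000330317.2. It had 27 and 26 counts in P-KO and 44 and 50 in WT, or 122.6 ± 47.8 CPM in P-KO and 194 ± 24.8 CPM in WT (SD, n = 2 each). All 4 TDP43 libraries listed the same nucleotide there. Both P-KO libraries were below both WT libraries, but the fitted difference was small beside its error (log2 fold change -0.04, SE 1.39). The CPM use totals of whole libraries, whereas the fit was scaled over the tested windows alone, so they are on different scales. Position 25411555 of chromosome 5 (minus strand, intron 1 of ENST00000511029.1) had 16 and 31 counts in P-KO and 38 and 38 in WT. Position 93454912 of chromosome 11 (plus strand, intron 19 of ENST00000325212.6) had 16 and 39 counts in P-KO and 36 and 32 in WT, with a FOX2 position 20 nt away. These 3 sites were high in all 4 libraries.

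Other sites among the highest 10 owed their rank to some libraries. Position 93616984 of chromosome 5 (minus strand, intron 1 of ENST00000513200.3) had 47 and 5 counts in P-KO and 51 and 3 in WT. Position 30374687 of chromosome 8 (plus strand, intron 5 of ENST00000538486.1) had 18 and 5 counts in P-KO and 38 and 3 in WT. At both, the first replicates of both genotypes were high and the second replicates of both were low. Position 121758143 of chromosome 7 (minus strand, intron 18 of ENST00000393376.1) had 15 and 8 counts in P-KO and 53 and 13 in WT, and position 25430215 of chromosome 5 (minus strand, intron 2 of ENST00000507887.1) had 22 and 20 in P-KO and 38 and 4 in WT. WT replicate 1 was the highest library at these 2. At position 25428264 of the same intron (3 and 28 counts in P-KO, 23 and 27 in WT) and position 44268531 of chromosome 21 (4 and 26 in P-KO, 22 and 32 in WT), P-KO replicate 1 alone was low. Position 15264805 of chromosome 6 (plus strand, intron 1 of ENST00000341776.2) completed the 10, with 9 and 19 counts in P-KO and 18 and 39 in WT, the second replicate being higher in each genotype. Together the 10 sites held 9.267% and 7.22% of all site counts in P-KO and 10.31% and 8.54% in WT, so no few sites dominated.

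The summed share of the sites is a description, since counts of WT replicate 1 ranked the positions. The sites held 1.107% of the window counts of P-KO replicate 1 (exact 95% binomial interval 1.058% to 1.157%), 0.9795% of P-KO replicate 2 (0.9442% to 1.016%), 1.685% of WT replicate 1 (1.63% to 1.741%) and 0.9972% of WT replicate 2 (0.9609% to 1.034%). These intervals cover counting error only. They are approximate, because a site's count is the highest listed within 5 nt and close sites can share counts. The share was 1.043% ± 0.0898 in P-KO and 1.341% ± 0.486 in WT (SD, n = 2 each), a log2 difference of -0.32 in mean log2 share. The difference rested on WT replicate 1: without it the log2 difference was 0.06. That library was also the highest when sites were chosen from another TDP43 library, with 1.543% to 1.663% of its window counts, against 0.9618% to 1.141% in the other 3, and the log2 difference was then -0.31 to -0.27.

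Each site was then tested on windows taken from the 4 TDP43 libraries together, so that neither genotype set the positions. The 376 sites fell in 373 of 288553 such windows, 363 of the sites within 5 nt of the window's position and 13 at 6 to 10 nt. A filter on low counts left 948 windows, of which 100 held sites. None of the 948 passed an adjusted p of 0.05 in edgeR's quasi-likelihood test (0% called), none passed in DESeq2, and 21 (2.22%) had an unadjusted p under 0.05 in edgeR. None of the 100 site windows had an adjusted or unadjusted p under 0.05. The spread between replicates was wide, with a biological coefficient of variation of 1.40, or 0.81 with the replicate number as a block. At a spread of 1.40 even large changes at a single site would not have been called, and 0.81 was not simulated. The count of 0 therefore does not show that the sites were alike in P-KO and WT cells. The median log2 fold change was 0.18 over the 100 site windows and -0.18 over all 948, and with whole-library totals in place of TMM factors it was -0.26 over the site windows and -0.53 over all, so its sign depends on the scaling.

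The windows with the smallest p among the sites show the range of the data. At position 48656893 of chromosome 19 (minus strand, intron 22 of ENST00000263274.7) the window had 13 and 13 counts in P-KO and 7 and 3 in WT, a log2 fold change of 2.03 (SE 1.38, edgeR adjusted p = 0.9997). At position 60912127 of chromosome 20 (minus strand, intron 7 of ENST00000474128.1) it had 19 and 20 counts in P-KO and 13 and 16 in WT (log2 fold change 1.18, SE 1.28). In both windows the P-KO libraries lay above the WT libraries in CPM. With whole-library totals in the fit, the log2 fold changes there were 1.42 and 0.58. In the other direction, position 3885730 of chromosome 3 (plus strand, intron 1 of ENST00000319331.3) had 3 and 4 counts in P-KO and 14 and 16 in WT (log2 fold change -1.44, SE 1.45), and position 67353181 of chromosome 11 (plus strand, intron 5 of ENST00000398606.3) had 4 and 7 counts in P-KO and 20 and 13 in WT (log2 fold change -1.08, SE 1.24). There the groups did not overlap either, but the errors were as large as the differences. With whole-library totals in the fit, those log2 fold changes were -1.97 and -1.57. A window can pass the filter on low counts through 1 group alone, so non-overlap here is partly set by the filter. Of the 948 tested windows, P-KO lay above WT in CPM at 11 (1.16%) and below at 182 (19.2%). Of the 100 site windows it lay above at 5 and below at 24, with no test. The remaining 3 on the higher side (positions 36725815 of chromosome 22, 204507221 of chromosome 1 and 93641015 of chromosome 5) had log2 fold changes of 1.43, 1.42 and 1.25. Those on the lower side (positions 20227832 of chromosome 19, 204043110 of chromosome 1 and 140993614 of chromosome 9) had -1.14, -0.90 and -0.74. All 10 had the same adjusted p of 0.9997.

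The order of the 4 libraries was also counted without a fit. Of the 814 pooled TDP43 windows listed in all 4 libraries, both P-KO libraries lay above both WT libraries in CPM at 5.16% and below them at 20.8%. Of the 333 among these that held sites, 23 had P-KO above and 71 had P-KO below, or 6.907% and 21.32%. Those 333 windows are part of the 814. At the 316 intron windows listed in all 4 libraries that held no site, the shares were 5.063% above and 19.94% below. Among windows listed in all 4 libraries, the sites were thus close to the others in both directions.

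In each of the other TDP43 libraries the crosslinked nucleotide itself was the same at a minority of the sites. P-KO replicate 1 listed the very nucleotide of WT replicate 1 at 98 sites (26.06%), P-KO replicate 2 at 169 (44.95%) and WT replicate 2 at 162 (43.09%), and the median offset was 1 nt in each. At 41 sites all 4 libraries listed the same nucleotide, at 100 sites 3 libraries did, at 106 sites 2 did, and at 129 only WT replicate 1 listed it. The rule required a listing within 5 nt, and several listed nucleotides make a match more likely. The mean number of listed nucleotides within 5 nt was 1.734 and 3.069 in P-KO and 3.864 and 3.077 in WT.

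What lay beyond the 10 nt that the rule kept free was not used by the rule. TDP43 itself was dense there. Between 11 and 100 nt from a site, 73.4% to 85.1% of the sites had a further TDP43 position, depending on the library, against 13.7% to 18.9% of the 56190 other TDP43 windows of WT replicate 1 that were equally free of FOX2 and hnRNP M. Among the 268 repeated TDP43 windows with FOX2 or hnRNP M within 10 nt the share was 78.7% to 90.7%, and a dense TDP43 surrounding was thus common to both kinds of repeated window. Most of the other windows had low counts and were listed in 1 TDP43 library. Per nucleotide and 100 sites, TDP43 P-KO replicate 2 listed 9.79 positions at 11 to 30 nt, 4.22 at 31 to 100 nt and 2.28 at 101 to 200 nt, and WT replicate 1 listed 10.8, 4.81 and 2.24 over the same distances. P-KO replicate 1 was sparser, at 3.65, 1.68 and 0.734. FOX2 positions were far fewer: FOX2 P-KO replicate 2, the FOX2 library with the most counts, listed 0.864 per nucleotide and 100 sites at 11 to 30 nt and 0.382 at 31 to 100 nt, and the other 3 FOX2 libraries listed 0.193 to 0.279 at 11 to 30 nt.

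**Figure D2:**
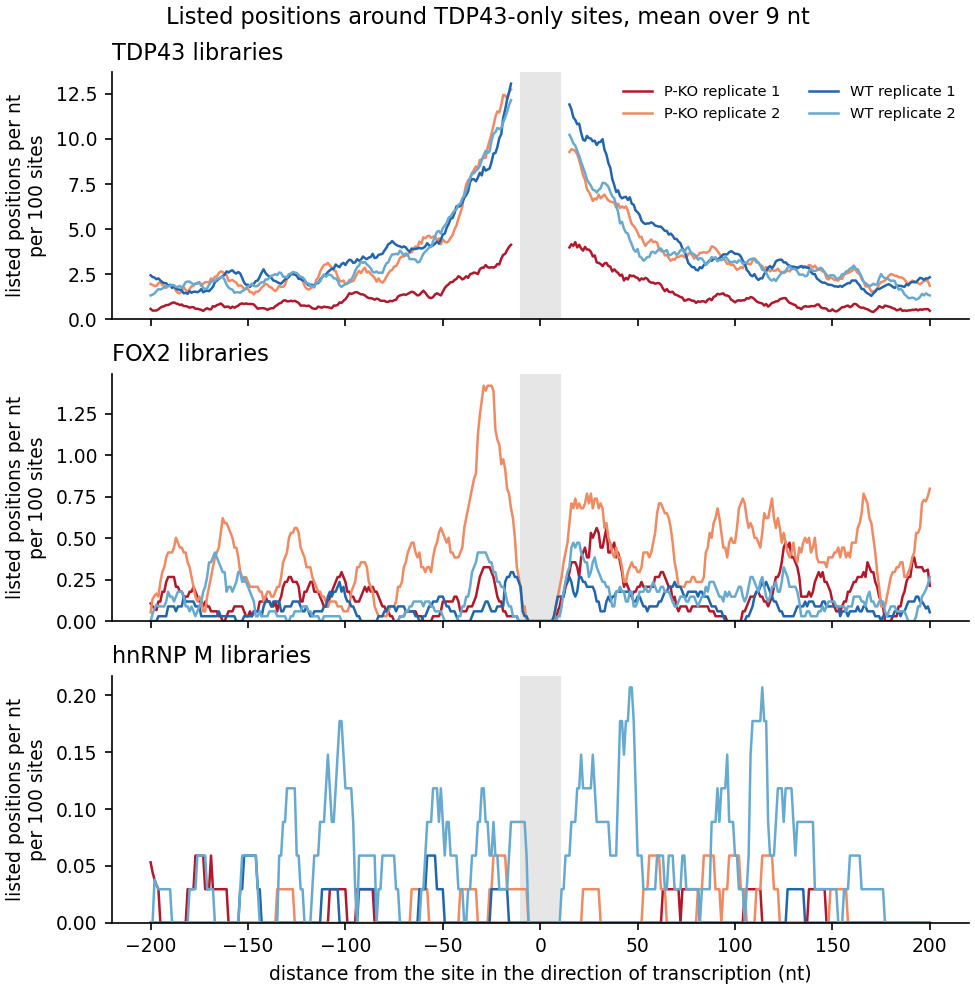
Listed positions around the 376 TDP43-only sites, per nucleotide and 100 sites, against distance from the site in nt, for TDP43, FOX2 and hnRNP M libraries; lines are means over 9 nt. The shaded 10 nt on each side are those the rule used, where FOX2 and hnRNP M have no position by choice and the TDP43 lines are left blank. TDP43 positions thin out with distance, and FOX2 and hnRNP M stay far below them.

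FOX2 was not far away from most sites. The median distance to the nearest FOX2 position of any library was 222 nt, and 129 sites (34.31%) had one within 100 nt and 298 (79.26%) within 1000 nt. For hnRNP M, the protein with fewer counts, the median was 804.5 nt, with 55 sites (14.63%) within 100 nt and 199 (52.93%) within 1000 nt. A site free of FOX2 within 10 nt was therefore usually not an intron free of FOX2. Of the 252 introns that held sites, 227 (90.08%) held a FOX2 window, 210 (83.33%) an hnRNP M window and 18 (7.143%) neither.

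Positions of FOX2 and hnRNP M at 11 to 100 nt were more frequent near the sites than near other TDP43 windows, most of them not repeated, and less frequent than near the 268 repeated windows that had FOX2 or hnRNP M within 10 nt. Near those 268, which were set apart by these proteins, 37.3% to 62.7% had a FOX2 position and 2.61% to 17.9% an hnRNP M position, depending on the library. In FOX2 P-KO libraries 8.245% and 20.21% of sites had a position at 11 to 100 nt, against 2.365% and 4.632% of the 56190 other windows. In FOX2 WT libraries the shares were 10.9% and 11.97% at sites, against 4.209% and 4.405%. In hnRNP M P-KO libraries they were 0.7979% and 2.128% at sites, against 0.5019% and 0.7492%. In hnRNP M WT libraries they were 1.064% and 11.7% at sites, against 0.4431% and 2.283%. The share was higher at sites in 8 of 8 libraries, by a mean of 5.929 percentage points (exact two-sided sign-flip permutation test over libraries, p = 0.007812, the smallest that 8 libraries allow; Benjamini-Hochberg adjusted 0.02344 over 6 comparisons). At 101 to 1000 nt the difference was 15.51 points, again in 8 of 8 libraries with the same p, and 6.649 points in 8 of 8 libraries among sites and windows with at least 5 counts in WT replicate 1. The comparison was chosen after the data were seen, and the libraries share the same sites and pool both proteins and both genotypes. The p therefore measures agreement among these libraries and not the spread over sites. The 6 comparisons were FOX2, hnRNP M and both together at each distance, so they overlap. Their adjustment does not cover the choice of comparison. For FOX2 alone or hnRNP M alone, 4 libraries allow no p under 0.125. At 11 to 100 nt, the 258 sites and 3291 other windows with at least 5 counts in WT replicate 1 differed by 4.108 points. There 6 of 8 libraries were higher (exact sign-flip p = 0.03125, not adjusted). In the first replicates of hnRNP M P-KO and hnRNP M WT the share was then lower at sites. The part that transcript level has in this was not tested.

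**Figure D3:**
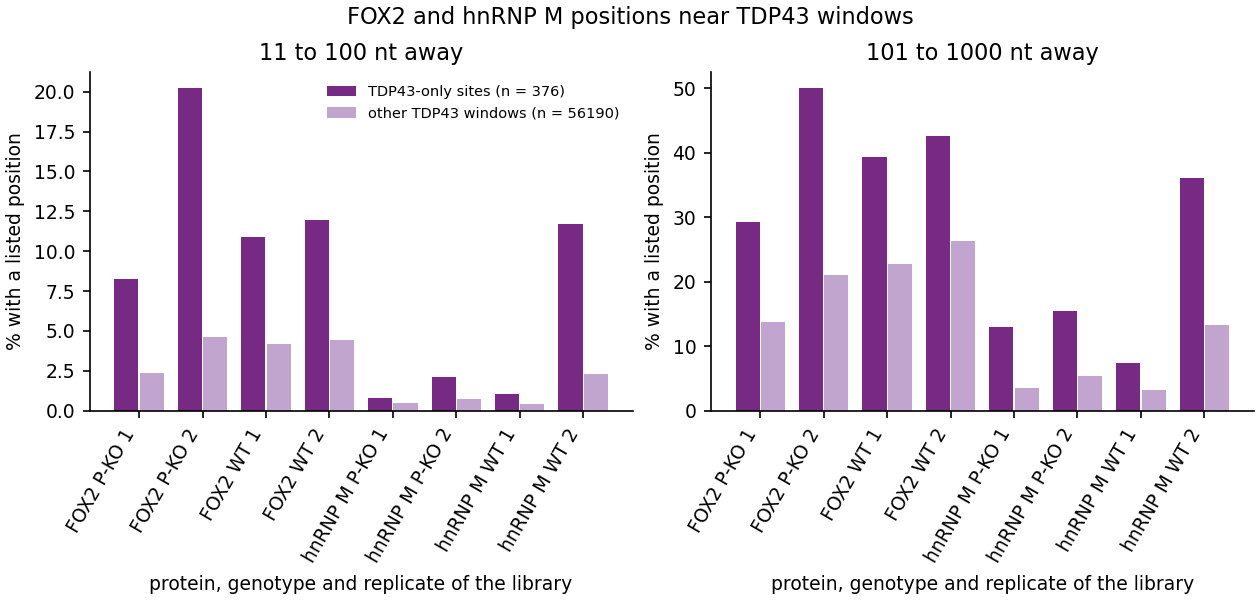
Percent of TDP43-only sites, and of other TDP43 windows of WT replicate 1, that have a FOX2 or hnRNP M position 11 to 100 nt away or 101 to 1000 nt away (1 panel each), by library. The sites lie above the other windows in 8 of 8 libraries in both panels, from 0.7979% to 20.21% against 0.4431% to 4.632% in the nearer range.

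Some introns held several sites. The 376 sites fell in 252 introns of 237 transcripts, and 199 introns held 1 site each. The other 53 introns held 177 sites (47.07%), and 9 introns with at least 5 sites held 64. Another site lay within 100 nt of 108 sites (28.72%) and within 10000 nt of 155 (41.22%). Introns with at least 2 windows held 58.96% of the 268 repeated TDP43 windows with FOX2 or hnRNP M near, 77.92% of the 1680 FOX2-only sites and 79.07% of all 60580 TDP43 windows of WT replicate 1. A larger set shares introns more often, and these sets differ in size, so the shares do not rank them by how gathered they are. Intron numbers in the files follow the coordinate on both strands, so intron 1 is the first intron of a transcript on the plus strand alone. There, 84 of 209 sites (40.19%) lay in intron 1, against 33.99% of all TDP43 windows of WT replicate 1 and 29.99% of FOX2-only sites, with no test.

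The intron with the most sites was intron 1 of ENST00000341776.2 on the plus strand of chromosome 6, with 12 sites between positions 15256896 and 15321035, a span of 64140 nt. Across this span the TDP43 window counts were 556 and 1005 in P-KO and 1096 and 912 in WT. It also held 121 and 223 FOX2 windows in P-KO and 112 and 144 in WT, and 15 further TDP43 windows that were repeated in 4 libraries but had FOX2 or hnRNP M within 10 nt. Here the sites were TDP43 positions between FOX2 positions. The sites at 15264805, 15264823 and 15264842 lay 18 and 19 nt apart. The middle one had 16 and 3 counts in P-KO and 15 and 8 in WT, and the last had 15 and 4 in P-KO and 32 and 9 in WT. At both, the first replicates were the higher ones, opposite to the site at 15264805.

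Intron 18 of ENST00000343348.6 on the minus strand of chromosome 5 had 8 sites over 49385 nt and was of the same spread kind. Its highest site, at 115904559, had 7 and 5 counts in P-KO and 21 and 6 in WT, with a FOX2 position 13 nt away. The span also held 10 repeated windows with FOX2 or hnRNP M near.

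The other 3 introns held short stretches. Intron 2 of ENST00000400337.2 on the plus strand of chromosome 21 had 10 sites between 46872215 and 46873187, within 973 nt and with a median gap of 77 nt. No FOX2 library listed a position in that span, and hnRNP M listed 1 window of 2 counts, in WT replicate 2. TDP43 counts over the span were 105 and 138 in P-KO and 231 and 148 in WT, from 28 and 23 windows in P-KO and 41 and 27 in WT. Its sites were low, and they varied. The highest, at 46872819, had 6 and 17 counts in P-KO and 6 and 17 in WT, and the first, at 46872215, had 5 and 5 in P-KO and 4 and 5 in WT. The site at 46873098 had 4 and 3 counts in P-KO and 12 and 7 in WT, and the one at 46873110 had 8 and 7 in P-KO and 13 and 4 in WT. The second replicates were thus the higher ones at 46872819, and P-KO was below WT at 46873098. The sites at 46873098 and 46873110 lay 12 nt apart, so their counts can overlap. WT replicate 1 listed 7 counts at 46873098 itself, and its 12 counts were listed within 5 nt of it. No repeated window of the span was lost to FOX2 or hnRNP M.

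Intron 4 of ENST00000457520.2 on the minus strand of chromosome 6 had 7 sites between 161574701 and 161574969, within 269 nt and with a median gap of 46 nt. FOX2 had 1 window of 2 counts there, in WT replicate 2, and hnRNP M had none. TDP43 counts over the span were 23 and 103 in P-KO and 65 and 63 in WT. The highest site, at 161574969, had 4 and 19 counts in P-KO and 12 and 8 in WT. The 2 P-KO libraries lay on either side of the WT libraries in this stretch.

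Intron 1 of ENST00000330317.2 on the minus strand of chromosome 21 had 7 sites between 44268350 and 44269125, within 776 nt, and held both the highest and the eighth highest site. TDP43 counts over the span were 71 and 295 in P-KO and 292 and 321 in WT, with P-KO replicate 1 alone low. FOX2 had 0 and 3 windows in P-KO and 1 and 0 in WT, and hnRNP M had none. These few FOX2 positions kept 3 repeated TDP43 windows out of the set, with 12 and 85 TDP43 counts in P-KO and 79 and 103 in WT. The sites at 44269111 and 44269125 lay 14 nt apart and differed in height, the second having 10 and 13 counts in P-KO and 21 and 18 in WT. The highest TDP43 count near these sites lay 18 nt upstream of 44269125 and was no site: P-KO replicate 2 had 70 counts, WT replicate 1 had 21 and WT replicate 2 had 57, but P-KO replicate 1 listed nothing within 5 nt.

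**Figure D4:**
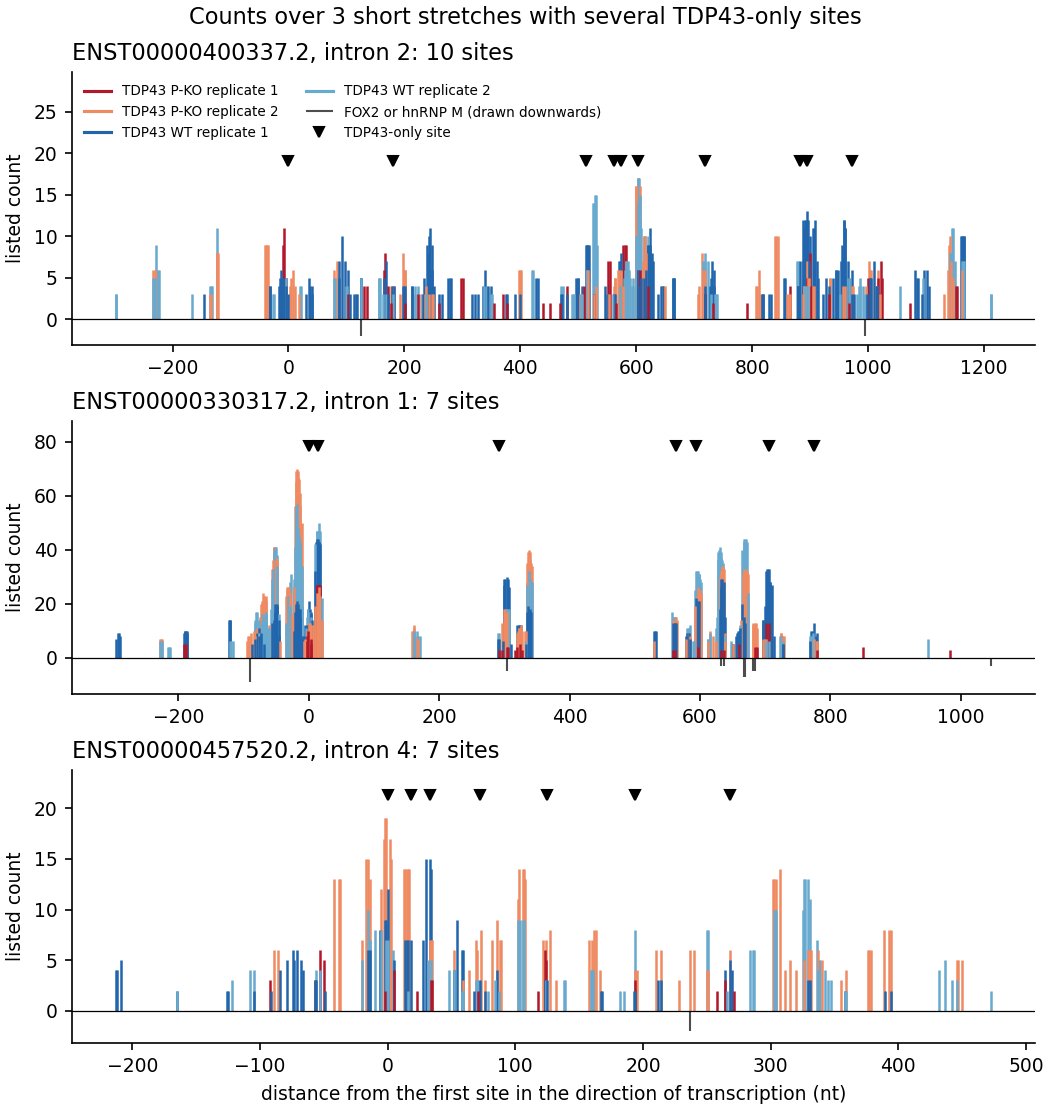
Listed TDP43 counts over 3 short stretches with 10, 7 and 7 sites, against distance in nt from the first site in the direction of transcription; P-KO libraries are red and orange, WT libraries dark and light blue, and where lines meet the lower count is in front. Triangles mark TDP43-only sites, and FOX2 or hnRNP M positions are drawn downwards. Some of the highest TDP43 positions are not sites, such as one of 70 counts in P-KO replicate 2, at 18 nt before the first site of the second stretch, that P-KO replicate 1 did not list.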

How the data were processed

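The 12 libraries were grouped by their labels into P-KO and WT for TDP43, FOX2 and hnRNP M, 2 libraries each. Bowtie and the build GRCh37 (hg19) are named in the submitters' processing notes; its version, the caller, and whether reads or collapsed cDNAs were counted were not given in the sources used here. Per library, the authors deposited a list with a position, transcript, strand, raw count and p-value or q-value; which of these it is was not stated, and the value never exceeded 0.05.

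Each listed count covers 5 nt on both sides, so windows were kept from the highest count down, at least 11 nt apart on a strand. A site's count in a library is the highest listed within 5 nt, and CPM is per 1000000 window counts. Genotypes were compared in the 4 TDP43 libraries with edgeR 4.0.16 (filterByExpr, TMM, quasi-likelihood F test, Benjamini-Hochberg over all windows tested) in R 4.3.3, with DESeq2 1.42.0 as an alternative; sites were found with Python 3.11.15, pandas 2.3.3 and numpy 2.4.6, exact tests used scipy 1.17.1, and figures used matplotlib 3.10.9. The fitting code was tested on simulated data. The design text of the series calls the replicates biological; whether they came from separate cultures is not stated, so p-values measure the spread between these libraries.

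The sites and lists were chosen with earlier results of these data known. Named sites are the 10 with the highest mean CPM, the 5 with the smallest p in each direction, the highest in each of the 5 introns with most sites, and the 3 on each side of the exclusion limit; other sites of these introns were named after their values were seen. A permutation test planned for the summed share is not reported, because counts of WT replicate 1 had ranked the sites. A planned count of sequence motifs was not run, because no genome of this build was used here.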

Additional observations from a re-analysis of the deposited data

How the results depend on the processing

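No site passed the threshold (0 called) in any of 15 alternatives to the main test, among them DESeq2, other scalings and filters, the replicate number as a block and leaving out each library. The median log2 fold change of the site windows was 0.18 in the test as reported. It was -0.26 with whole-library totals, -0.20 without a filter, -0.27 over 10 kb bins and -0.31 to 0.42 without 1 library at a time. For scale, the SD between replicates of a library's median log2 CPM over the sites was 0.35. Over bins, 3 of 10563 were called and 0 of the 265 that held sites. The log2 difference in summed share turned to 0.0622 without WT replicate 1 and ranged from -0.69 to 0.0622 without 1 library at a time. It was -1.26 when a library's count was taken at the site's own nucleotide, which WT replicate 1 always lists, -0.39 over intron windows and -0.34 without mitochondrial and GL000220 positions. The number of sites was 41 with listing at the same nucleotide, 643 within 10 nt, 213 when kept free of FOX2 and hnRNP M within 100 nt, 71 with at least 5 counts in each TDP43 library, and 588 to 1153 without 1 TDP43 library; choosing from the other TDP43 libraries gave 359 to 383. Without 1 of the 8 FOX2 and hnRNP M libraries, the difference in neighbours was 4.55 to 6.73 points.

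Same-numbered TDP43 libraries of the 2 genotypes deviated together (r = 0.69 over 948 windows), but 2 pairs do not show that the numbers pair them. Replicates of 1 genotype did not agree in CPM. Over the 100 site windows their Spearman correlation was -0.38 in P-KO and -0.11 in WT. Between genotypes it was 0.40 for the first replicates and 0.66 for the second. Over all 948 windows these values were -0.13, 0.08, 0.55 and 0.76. With the replicate block, 0 sites were called, 12 windows against 21 had an unadjusted p under 0.05, the median log2 fold change was 0.09 and the share difference was -0.32 (within pairs -0.61 and -0.03); no call changed. The motif count and its alternatives were not run. Low counts and replicate spread both limit the sites: 100 of the 373 windows that held sites passed the filter on low counts, and 86 sites sat at 2 counts in P-KO replicate 1.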

Other observations

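The order of the 4 libraries followed replicate number at many sites, as it did at many pooled TDP43 windows. Both first replicates lay above both second replicates in CPM at 133 of 376 sites (35.37%) and below them at 31 (8.245%). Over the 814 pooled TDP43 windows listed in all 4 libraries the numbers were 244 (29.98%) above and 157 (19.29%) below. Such an order was thus not particular to the sites, and WT replicate 1, a first replicate, had ranked their positions. WT replicate 1 was the highest library at 192 of the 376 sites, against 73 for P-KO replicate 1, 59 for P-KO replicate 2 and 52 for WT replicate 2. It was also the highest at 400 of the 814 pooled windows and at 159 of the 316 intron windows among them that held no site.

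Chromosome 21 held 24 sites (6.38%), against 1.25% of the TDP43 windows of WT replicate 1, and 17 of the 24 lay in the introns of ENST00000400337.2 and ENST00000330317.2. Chromosome 5 held 36 sites (9.57%, against 5.66% of windows), and chromosome 12 held 7 (1.86%, against 5.02%).

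For the authors' p or q column, the lowest value listed within 5 nt was taken at each site. It was 0 at 60.64% and 66.49% of the sites in the P-KO libraries and at 76.33% and 66.76% in the WT libraries. Over all listed positions, each taken alone, the column was 0 at 56.95% and 35.64% in P-KO and at 41.56% and 36.63% in WT. Taking the lowest of several values raises the share at sites, so the shares are not like for like. The difference was smallest in P-KO replicate 1, the library with the fewest TDP43 window counts. That library also listed the fewest nucleotides within 5 nt of a site (mean 1.734, against 3.069 to 3.864).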
